A study of Rattus norvegicus with 25 samples.

Results

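The striatal neuropeptide precursors are genes that encode peptides of the striatum, made by its own neurons or by neurons that project to it. They were taken here as the probe sets whose annotation gave exactly 1 symbol, and that symbol one of Penk, Pdyn, Tac1, Sst, Npy, Cck or Cartpt. This rule found 7 probe sets, 1 for each of the 7 genes, of 29214 on the array, and used no measured value. All 7 lay over the filter on low values, set at the median of the average levels (6.97), which kept 14607. Levels are log2 values from robust multi-array averaging (RMA), which summarises the probes of a gene on an array. By mean level, Penk stood at percentile 99.7 of all probe sets, and Cck and Cartpt at 60.1 and 61.6. Whether the level of a gene affected its spread between arrays was not tested.

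The tissue was the striatum of male Lister Hooded rats, killed at postnatal day 35 to 42, with 1 rat per array and 25 arrays in all. In the Nic group (n = 7) the dams had drunk nicotine bitartrate from before mating. In the food-matched group, Con-Pf (n = 10), each dam was given the amount of food that a matched Nic dam had eaten, with no nicotine. In the control group, Con (n = 8), the dams ate freely and had no nicotine. The offspring themselves were experimentally naive and were littermates of animals of an earlier behavioural experiment. The labels do not say which rats shared a dam, so p-values measure the spread between these rats. The paper gives fewer Con-Pf dams than there are Con-Pf arrays here. With the groups as titled, some of these rats therefore shared a dam, and the tests treat all rats as independent. The number of arrays limits the precision.

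Most neurons of the striatum are GABAergic medium spiny neurons. Those of the direct pathway carry dopamine D1 receptors and make dynorphin and substance P, and those of the indirect pathway carry dopamine D2 receptors and make enkephalin. A sparse class of interneurons makes somatostatin and neuropeptide Y together, and cholecystokinin is abundant in the cortical and other neurons that project to the striatum. Peptide precursors are cut in dense-core vesicles, and the mature peptides act on G protein-coupled receptors.

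The arrays correlated with each other at r = 0.967 to 0.997 over the probe sets kept. Con replicates 3 and 5 stood apart on the first principal component, which held 30.4% of the variance, with scores of -25.2 and -33.9, while the other arrays ranged from -11.6 to 9.63. Con-Pf replicates 9 and 10 were named as food-matched in 1 label and as controls in another, and were kept as Con-Pf by their titles. The group sizes given in the methods fit them as controls in the account of the statistics, and as food-matched in the account of the animals and the arrays removed. Counted as Con, they took the probe sets called for Con-Pf over Con to 27, against 184 with the titles. Markers of striatal neurons were present in each group. The D1 receptor gene Drd1 averaged 11.18 in Nic, 11.14 in Con-Pf and 11.19 in Con, and all 7 direct pathway markers and all 6 indirect pathway markers on the array were over the filter. Some arrays were also high for cortical neuron markers or for choroid plexus markers, as given below.

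The precursors of the medium spiny neurons differed little between the groups. Penk encodes proenkephalin, the source of the enkephalins. Its lowest, median and highest levels were 13.12, 13.22 and 13.23 in Nic, 13.19, 13.21 and 13.30 in Con-Pf, and 13.10, 13.18 and 13.23 in Con. All groups overlapped, and the lowest Nic value was a single array, replicate 7, below the other 6. The log2 fold change of Penk was -0.02 (standard error 0.03) for Nic over Con-Pf, 0.05 (0.03) for Con-Pf over Con and 0.03 (0.03) for Nic over Con, with adjusted p from limma of 0.999, 0.25 and 0.564. All 10 Con-Pf arrays were above the Con median, and 4 of them were above every Con array.

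Pdyn encodes prodynorphin, the source of the dynorphins, which act on the kappa opioid receptor. It had levels of 9.90, 10.17 and 10.33 in Nic, 10.09, 10.12 and 10.23 in Con-Pf, and 9.91, 10.09 and 10.30 in Con. The means lay within 0.05 of each other, and the Con-Pf arrays fell inside the ranges of the other groups. The standard deviation was 0.14 in Nic, 0.04 in Con-Pf and 0.14 in Con, and no test of the spread was run. The 95% intervals of the 3 log2 fold changes lay between -0.13 and 0.16, and the adjusted p was 0.999 for Nic over Con-Pf, 0.575 for Con-Pf over Con and 0.75 for Nic over Con.

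Tac1 encodes the precursor of substance P and neurokinin A. Its levels were 10.77, 10.81 and 10.90 in Nic, 10.67, 10.86 and 10.96 in Con-Pf, and 10.66, 10.75 and 10.87 in Con. Every Nic array was above the Con median, and 5 of 10 Con-Pf arrays were above every Con array. On the log2 scale the fold change was -0.03 (standard error 0.04) for Nic over Con-Pf, 0.08 (0.04) for Con-Pf over Con, and 0.05 (0.04) for Nic over Con. The Con-Pf over Con value had an unadjusted p of 0.0469 and an adjusted p of 0.221. It was 0.11 without Con-Pf replicates 9 and 10 (adjusted p = 0.154) and 0.07 without Con replicates 3 and 5 (adjusted p = 0.764).

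**Figure D1:**
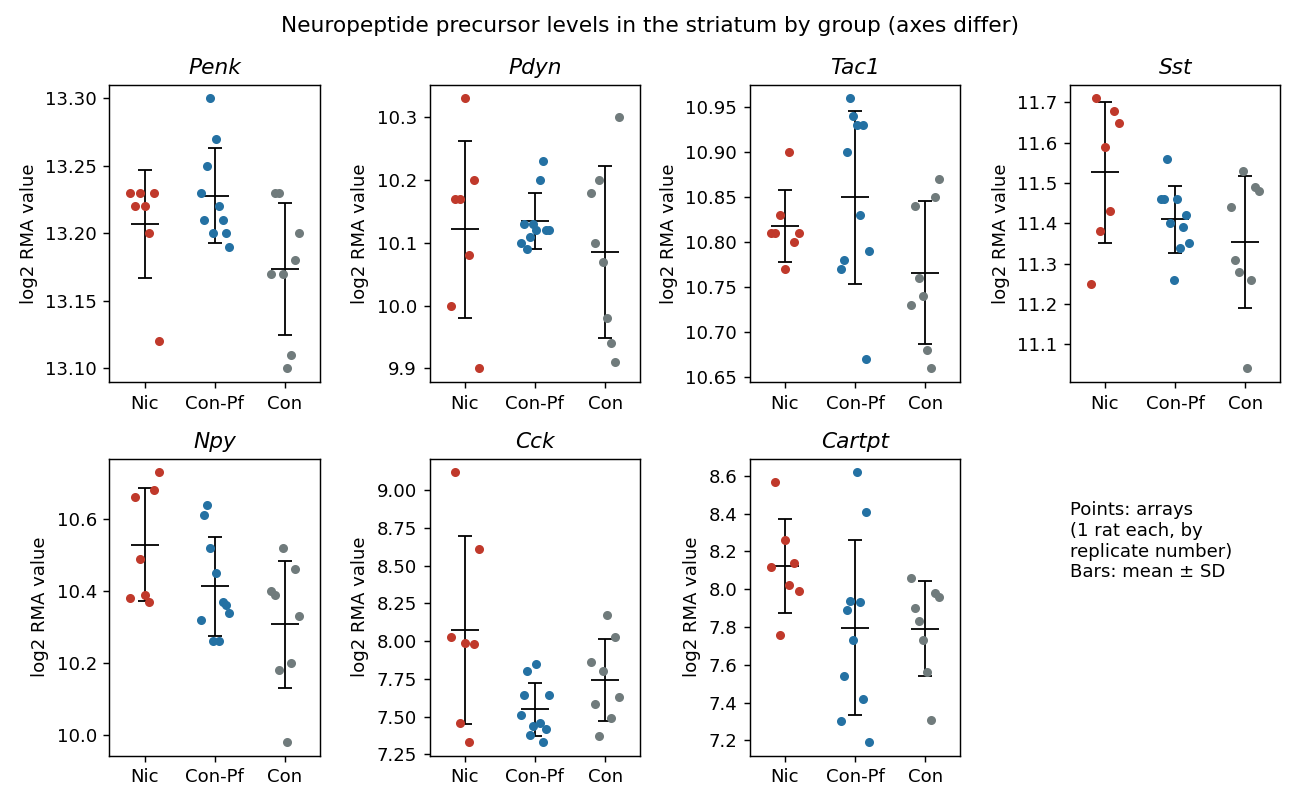
Log2 RMA values of the 7 precursors on each array (points, 1 rat each, ordered by replicate number) in Nic (n = 7), Con-Pf (n = 10) and Con (n = 8), with mean and SD as bars. The value axes differ between panels, and the group ranges overlap for every gene, with Nic replicates 2 and 7 highest for Cck at 9.12 and 8.61.

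Sst and Npy, the precursors of the interneurons, had their highest group mean in Nic and their lowest in Con, with no difference that passed the test. Sst encodes the somatostatin precursor, whose peptides inhibit hormone release and neuronal firing. Its levels were 11.25, 11.59 and 11.71 in Nic, 11.26, 11.41 and 11.56 in Con-Pf, and 11.04, 11.38 and 11.53 in Con. Of the 7 Nic arrays 4 were above every Con-Pf array and above every Con array, while Nic replicate 1, at 11.25, was below every other array but Con replicate 5. The log2 fold change of Sst was 0.12 (standard error 0.07, adjusted p = 0.999) for Nic over Con-Pf, 0.06 (0.06, adjusted p = 0.617) for Con-Pf over Con and 0.17 (0.07, unadjusted p = 0.0199, adjusted p = 0.276) for Nic over Con.

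Npy encodes the precursor of neuropeptide Y, a widespread peptide that in the hypothalamus stimulates feeding. Its levels were 10.37, 10.49 and 10.73 in Nic, 10.26, 10.36 and 10.64 in Con-Pf, and 9.98, 10.36 and 10.52 in Con. All 7 Nic arrays were above the Con-Pf median and above the Con median, but the groups overlapped. The log2 fold change of Npy was 0.12 (standard error 0.07, adjusted p = 0.999) for Nic over Con-Pf, 0.10 (0.07, adjusted p = 0.389) for Con-Pf over Con and 0.22 (0.08, unadjusted p = 0.0088, adjusted p = 0.268) for Nic over Con. The lowest value of both genes was on Con replicate 5, one of the arrays that stood apart. Without Con replicates 3 and 5 the log2 fold change of Nic over Con was 0.11 for Sst (unadjusted p = 0.11) and 0.14 for Npy (unadjusted p = 0.0621), and that of Con-Pf over Con was -0.01 for Sst and 0.03 for Npy.

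The RefSeq promoter table held 5 of the 7 genes, namely Pdyn, Tac1, Sst, Npy and Cartpt. The 150 bases before the annotated start are shown for Sst and Npy, since these genes varied together between rats, and for Cartpt, the member whose window held a full cAMP response element. The cAMP response element is the site through which cAMP signalling acts on many peptide genes. It is in capitals. The windows are from GRCr8, at chr11:90461396-90461545 (plus strand) for Sst, chr4:80211961-80212110 (plus strand) for Npy and chr2:32991236-32991385 (minus strand) for Cartpt.
Sst: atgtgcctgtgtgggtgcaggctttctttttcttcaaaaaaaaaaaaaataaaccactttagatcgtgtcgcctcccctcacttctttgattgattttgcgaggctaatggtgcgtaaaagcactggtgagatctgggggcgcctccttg
Npy: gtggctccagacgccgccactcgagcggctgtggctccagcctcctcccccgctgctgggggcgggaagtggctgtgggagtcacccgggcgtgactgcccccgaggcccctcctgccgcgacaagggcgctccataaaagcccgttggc
Cartpt: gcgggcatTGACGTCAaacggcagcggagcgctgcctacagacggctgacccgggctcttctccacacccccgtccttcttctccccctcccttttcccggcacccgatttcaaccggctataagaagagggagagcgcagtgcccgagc
The element searched was TGACGTCA on both strands, which was found in 1.36% of 33469 rat promoters of the same length. In Cartpt it began 142 bases before the start. Its 5-base core TGACG, searched on both strands, was found in 13.4% of those promoters. Of the 5 windows searched only that of Cartpt held it, and both matches lay inside the full element. Penk and Cck were not searched, nor were bases after the annotated start, so an element there would be missed. A window without a match, such as that of Sst, therefore does not show that the gene lacks the element. The letters TATAAA, searched on the gene's strand, were in 5.15% of the promoters and in the Pdyn window, 13 bases before the start. The array measured the RNA and not the use of these letters.

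Cck and Cartpt had the widest spread of the members and the largest differences between Nic and the other groups. Cck encodes the cholecystokinin precursor. Its levels were 7.33, 7.99 and 9.12 in Nic, 7.33, 7.49 and 7.85 in Con-Pf, and 7.37, 7.71 and 8.17 in Con. Nic replicates 2 (9.12) and 7 (8.61) were above every other array, 5 of 7 Nic arrays were above every Con-Pf array, and Nic replicate 5 was as low as Con-Pf replicate 8, at 7.33. The standard deviation was 0.62 in Nic, 0.18 in Con-Pf and 0.27 in Con.

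For Cck the log2 fold change of Nic over Con-Pf was 0.53 (standard error 0.17, 95% interval 0.18 to 0.88), or 1.44-fold. Its unadjusted p from limma was 0.00467 and its adjusted p was 0.609. By the methods' t-test on the same values the unadjusted p was 0.0213, and with unequal variances it was 0.067. The value was 0.35 without Nic replicate 2 and 0.44 without Nic replicate 7, with adjusted p of 1 for both. For Con-Pf over Con it was -0.19 (standard error 0.16, adjusted p = 0.484), and for Nic over Con 0.33 (standard error 0.18, adjusted p = 0.337), of which 0.16 was left without Nic replicate 2. These comparisons share arrays, so they are not independent of each other.

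No marker of cortical neurons passed in any comparison. In each group the array highest for Cck was also the highest for Slc17a7 and for the mean of 8 cortical and thalamic markers. Slc17a7, the vesicular glutamate transporter gene of cortical neurons, had levels of 7.34, 8.82 and 10.47 in Nic, 7.19, 7.59 and 8.55 in Con-Pf, and 7.50, 7.93 and 10.25 in Con. Its 3 highest arrays were Nic replicates 2 and 7 and Con replicate 5, at 10.12 or more. These 3 were also the highest for Cck, at 9.12, 8.61 and 8.17. Its log2 fold change was 1.18 for Nic over Con-Pf (standard error 0.38, adjusted p = 0.576), -0.63 for Con-Pf over Con (adjusted p = 0.3) and 0.55 for Nic over Con (adjusted p = 0.453). Without Nic replicate 2 it was 0.91 for Nic over Con-Pf and 0.28 for Nic over Con, and without Nic replicate 7 it was 0.34 for Nic over Con. For Con-Pf over Con it was -0.35 without Con replicate 5, and without Con replicates 3 and 5 it was -0.39 for Con-Pf over Con and 0.79 for Nic over Con. Of the 15 cortical and thalamic markers listed, 8 had a probe set with 1 symbol and only Slc17a7 and Fezf2 were over the filter, with Slc17a6, Neurod6, Neurod2, Neurod1, Slc30a3 and Nrn1 below it. Fezf2, a transcription factor gene of deep-layer cortical neurons, had log2 fold changes of 0.13 for Nic over Con-Pf, 0.04 for Con-Pf over Con and 0.17 for Nic over Con (adjusted p = 0.999, 0.768 and 0.307). The mean level of the 8 genes ranged from 6.09 to 7.20 in Nic, from 6.06 to 6.45 in Con-Pf and from 6.17 to 6.99 in Con. The highest means were on Nic replicate 2, Con-Pf replicate 6 and Con replicate 5. The part of these markers in the Cck difference was not tested. In bulk tissue, a change in the number of cells of a type and a change in RNA per cell cannot be told apart.

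Cartpt encodes the precursor of the cocaine- and amphetamine-regulated transcript peptides. Its levels were 7.76, 8.12 and 8.57 in Nic, 7.19, 7.81 and 8.62 in Con-Pf, and 7.31, 7.86 and 8.06 in Con. The Con-Pf arrays spanned the whole range of the Nic arrays, with replicates 6 and 9 high at 8.62 and 8.41, and 4 of 7 Nic arrays were above every Con array. The standard deviation was 0.25 in Nic, 0.46 in Con-Pf and 0.25 in Con. Its log2 fold change was 0.33 for Nic over Con-Pf (standard error 0.16, unadjusted p = 0.0516, adjusted p = 0.999) and 0.33 for Nic over Con (standard error 0.17, unadjusted p = 0.0586, adjusted p = 0.32). With array weights the value of Nic over Con-Pf was 0.16 (unadjusted p = 0.269). That of Con-Pf over Con was 0.01 (standard error 0.15), with an interval from -0.31 to 0.32.

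Across the 3 comparisons, none of the 7 precursors was called at an adjusted p under 0.05 by limma. For Nic over Con-Pf 0 of 7 were called, against 27 of 14607 probe sets (0.185%), and at an unadjusted p under 0.05 1 was (Cck), against 4.36%. For Con-Pf over Con 0 of 7 were called, against 184 probe sets (1.26%), and at an unadjusted p under 0.05 1 was (Tac1), against 22.0%. For Nic over Con 0 of 7 were called, against 0 probe sets (0.0%), and at an unadjusted p under 0.05 2 were (Sst and Npy), against 16.2%. These shares of the members come from very few genes. The study called genes by 2 limits, 0.01 for the unadjusted p and 0.5 for the size of the log2 value. With these limits on the limma results, Cck was 1 of 15 probe sets (0.103%) for Nic over Con-Pf, and no member passed for Con-Pf over Con (0.199% of probe sets) or for Nic over Con (0.0205%). With the p of the methods' t-test Cck did not reach 0.01.

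By sign, 4 of 7 members were higher for Nic over Con-Pf, against 55.9% of all probe sets kept. For Con-Pf over Con 6 of 7 were higher, against 55.8%, and for Nic over Con 7 of 7, against 59.1%. After each array was centred on its median the share of all probe sets was 51.4%, 47.0% and 48.0%, and the members higher were 4, 5 and 7 of 7. The median log2 fold change of the members was 0.12, 0.05 and 0.17 in these comparisons, against 0.01, 0.02 and 0.02 over all probe sets. No member had groups that did not overlap, as 0.0822%, 0.274% and 0.0274% of probe sets did.

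**Figure D2:**
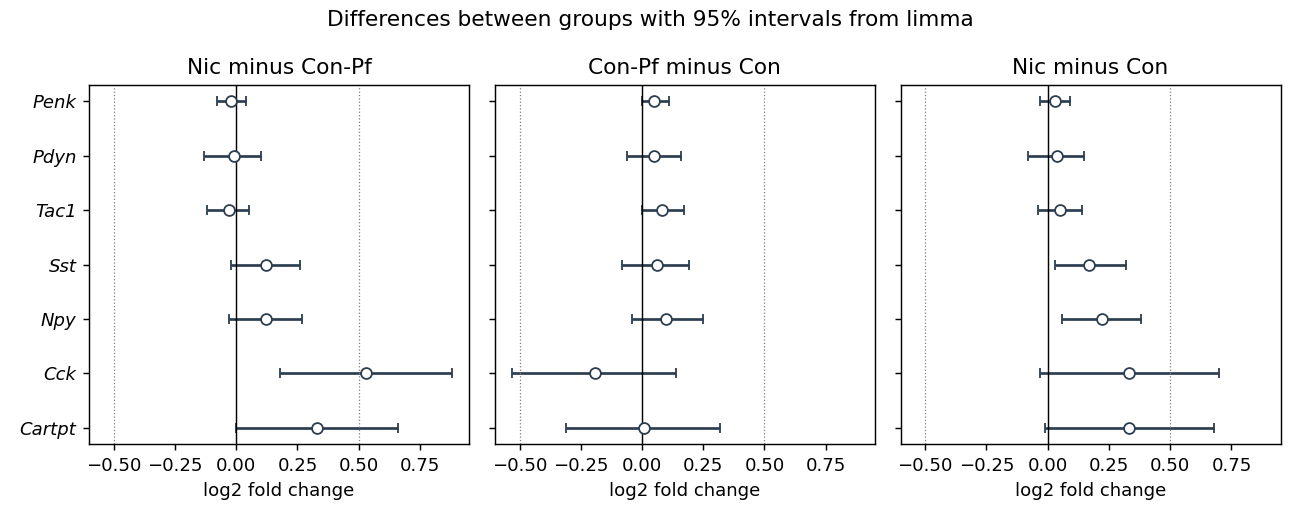
Log2 fold changes of the 7 precursors (points) with 95% intervals from limma (bars) for Nic minus Con-Pf, Con-Pf minus Con and Nic minus Con, with dotted lines at 0.5 in size. The intervals of Penk, Pdyn and Tac1 are narrow and near 0, and the value farthest from 0 is Cck for Nic minus Con-Pf, at 0.53 with an interval of 0.18 to 0.88.

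Between rats of a group, Sst and Npy varied together. After the group means were subtracted, Pearson's r over the 25 arrays was 0.81 and Spearman's rho 0.81, with a two-sided permutation p of 1e-05 for r, the smallest that 100000 resamples can give, and an adjusted p of 0.00021 over the 21 pairs of precursors. For rho the adjusted permutation p was 4.20e-04. Within groups r was 0.76 in Nic (exact permutation p = 0.0653), 0.76 in Con-Pf (permutation p = 0.00802) and 0.92 in Con (exact permutation p = 0.00278). It was 0.73 without the arrays farthest from the median of Sst (Con replicate 5 and Nic replicate 2), and also 0.73 without Con replicates 3 and 5. Among 8988 other genes, Sst ranked 4 by its r with Npy, and Npy ranked 14 by its r with Sst.

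The first principal component of the arrays also varied with these genes, at r = 0.49 for Sst and 0.57 for Npy, with adjusted permutation p of 0.199 and 0.0609. Without Con replicates 3 and 5 these values were 0.11 and 0.27. The mean of the 8 other markers of somatostatin interneurons did not follow them closely: its r was 0.10 with Sst and -0.26 with Npy (adjusted permutation p = 0.79 and 0.556). Within Nic alone it was 0.76 with Sst (exact permutation p = 0.0341 before adjustment), against -0.18 in Con-Pf and -0.35 in Con. That list holds Nos1, the neuronal nitric oxide synthase gene that these interneurons also use, and Gad1, which other GABAergic neurons of the striatum express too, and its gene Tacr1 is also on the receptor list. The mean cortical and thalamic marker level had r = 0.18 with Sst and 0.04 with Npy (adjusted permutation p = 0.645 and 0.874). Within Nic it was 0.72 and 0.69 (exact permutation p = 0.0827 and 0.107 before adjustment). In Con-Pf it was -0.05 and -0.35, and in Con -0.50 and -0.53. Without Con replicates 3 and 5 it was 0.53 and 0.30. The part of these markers in the Sst and Npy differences was not tested.

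No other pair of precursors passed at an adjusted p under 0.05 with all arrays. The next was Penk with Tac1 (r = 0.54, rho = 0.54, adjusted permutation p = 0.0779), which are mostly made by different classes of medium spiny neurons. Within groups its r was -0.15 in Nic, 0.61 in Con-Pf and 0.77 in Con, and without the 2 arrays farthest from the median of Penk it was 0.39. Pdyn and Tac1, which are both made by direct pathway neurons, had r = 0.11 (adjusted permutation p = 0.569).

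Cck followed the cortical and thalamic markers. Of 35 relations between the 7 precursors, 4 marker lists and the first principal component, that of Cck with the mean of the 8 cortical and thalamic markers had r = 0.87 and rho = 0.77, with an adjusted permutation p of 0.00035 for r. Within groups r was 0.97 in Nic (exact permutation p = 0.00218), 0.34 in Con-Pf (permutation p = 0.332) and 0.84 in Con (exact permutation p = 0.00699). It was 0.76 without Nic replicates 2 and 7, and 0.71 without these and Con replicate 5. With Slc17a7 alone, chosen after its values were seen, r was 0.84, and 0.70 over the 22 arrays without those 3. The other relation that passed was that of Pdyn with the mean of the 6 indirect pathway markers (r = 0.62, rho = 0.64, adjusted permutation p = 0.036), with r of 0.76 in Nic, 0.23 in Con-Pf and 0.74 in Con. With the direct pathway markers, whose neurons make dynorphin, Pdyn had r = 0.20 (adjusted permutation p = 0.584).

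**Figure D3:**
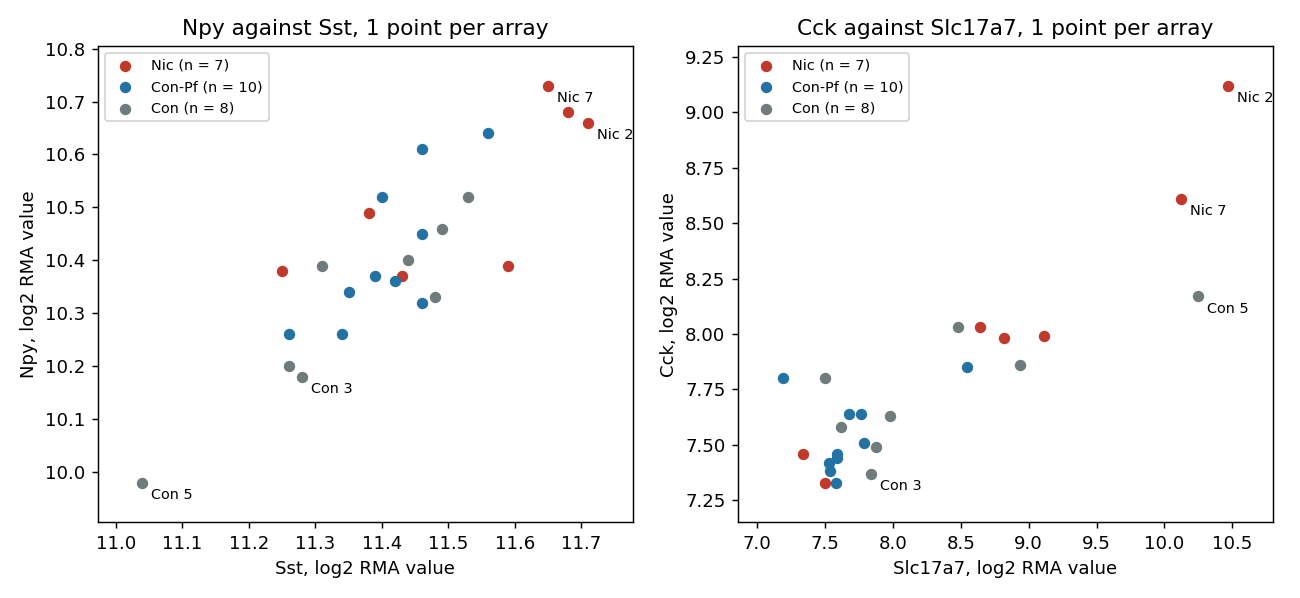
Npy against Sst (left) and Cck against Slc17a7 (right), as log2 RMA values, 1 point per array, coloured by group. Sst and Npy lie along a line with Con replicate 5 lowest for both, and Nic replicates 2 and 7 hold the highest Cck beside Slc17a7 of 10.47 and 10.12.

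**Figure D4:**
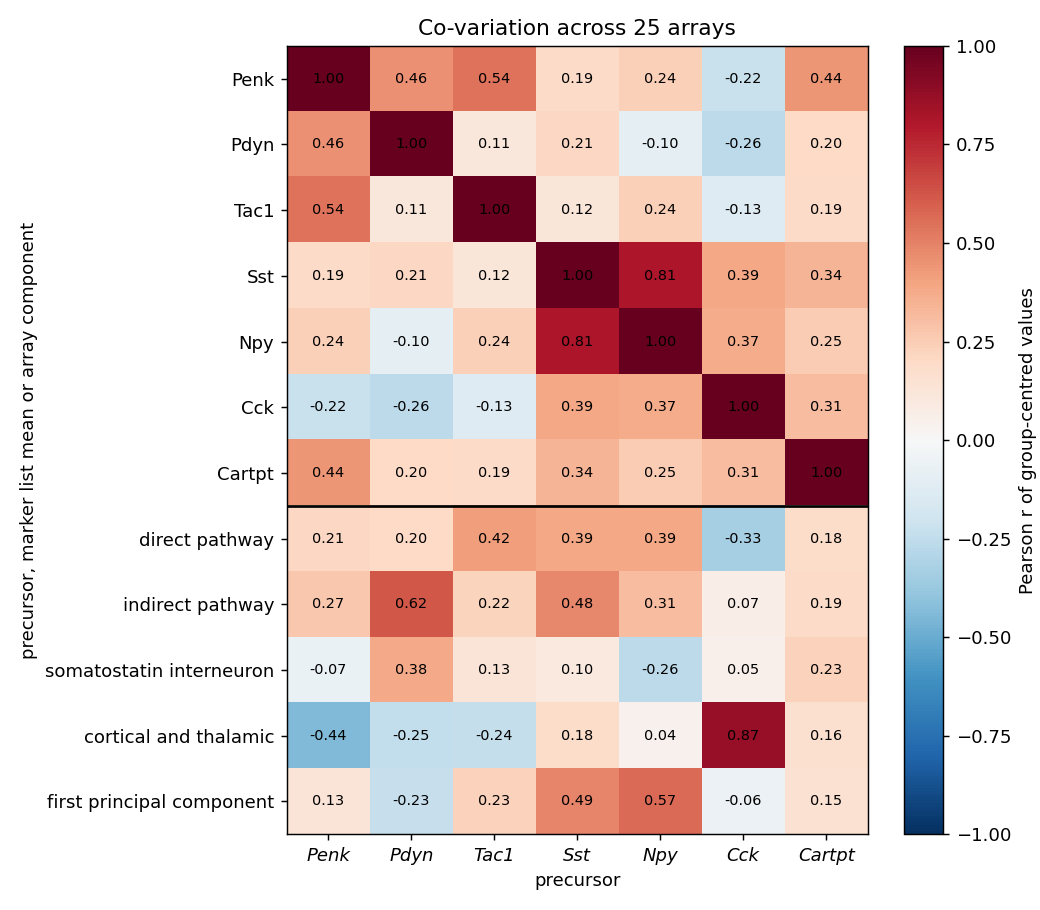
Pearson r of group-centred values over 25 arrays, between the 7 precursors (upper block) and between each precursor and the mean of 4 marker lists or the first principal component of the arrays (lower block), with r written in each cell. Sst with Npy (0.81) and Cck with the cortical and thalamic markers (0.87) are the strongest cells off the diagonal.

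The genes whose levels followed each precursor most closely were, by r over 25 arrays, Dnaja1 (0.70), Tgoln2 (0.66) and Ube2b (0.66) for Penk, and Pgrmc1 (0.81), Araf (0.80) and Got2 (0.77) for Pdyn. They were Dhrs3 (0.74), Sptssb (0.72) and Klhdc8a (0.71) for Tac1. For Sst they were Ly6e (0.87), Trappc2l (0.87) and Hspb6 (0.86), and for Npy Cuta (0.85), Tmem39b (0.83) and Banf1 (0.82). Cck was followed by Stx1a (0.84), Slc17a7 (0.84) and Tshz3 (0.84), and Cartpt by Ube2b (0.72), Tpgs2 (0.68) and Ppa2 (0.68). Of these lists, only that of Penk and that of Cartpt shared a gene, Ube2b, a ubiquitin-conjugating enzyme. The candidates were 9606 probe sets, and no p was computed.

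The receptors of these peptides gave no call either. Of 17 receptor genes listed, 9 were over the filter and 0 passed in any comparison, with the smallest adjusted p 0.593 for Nic over Con-Pf, 0.123 for Con-Pf over Con and 0.273 for Nic over Con. Oprk1, the kappa opioid receptor gene on which dynorphin acts, averaged 9.56 in Nic and 9.36 in Con-Pf (difference 0.21, standard error 0.07, adjusted p = 0.593). Oprd1, the delta opioid receptor gene on which enkephalin acts, averaged 8.37 in Con-Pf and 8.58 in Con (difference -0.21, standard error 0.07, adjusted p = 0.123). Npy1r, a neuropeptide Y receptor gene, averaged 7.38 in Nic and 7.16 in Con, with 0.22 (standard error 0.09, adjusted p = 0.273). Tacr1, the receptor gene for substance P, averaged 9.37 in Nic and 9.24 in Con-Pf (0.13, standard error 0.05, adjusted p = 0.999).

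Among other peptide precursors, 46 genes were listed and 9 were over the filter, and 1 of the 9 rose for Con-Pf over Con. Over all probe sets kept, 184 of 14607 (1.26%) were called in this comparison. The gene that rose was Edn1, which encodes the precursor of the vasoconstrictor endothelin-1. Its levels were 7.21, 7.60 and 7.79 in Nic, 7.65, 7.84 and 7.97 in Con-Pf, and 7.15, 7.38 and 7.57 in Con. Every Con-Pf array was above every Con array, and Nic overlapped both. The ranges of Con-Pf and Con did not overlap in 0.274% of all probe sets kept. Edn1 had log2 fold changes of -0.24 for Nic over Con-Pf (standard error 0.07, adjusted p = 0.425), 0.45 for Con-Pf over Con (standard error 0.07, adjusted p = 2.85e-04) and 0.21 for Nic over Con (standard error 0.08, adjusted p = 0.268). The Con-Pf over Con value was 0.42 without Con replicates 3 and 5 (adjusted p = 0.00302), and 0.40 with Con-Pf replicates 9 and 10 counted as Con (adjusted p = 0.0333). Trh, the thyrotropin-releasing hormone precursor gene, averaged 7.49 in Con-Pf and 7.25 in Con (0.25, standard error 0.08, adjusted p = 0.114), and Tac3, the neurokinin B precursor gene, 9.17 in Con-Pf and 9.00 in Con (0.17, standard error 0.07, adjusted p = 0.184). Nmu, which encodes neuromedin U, had -0.18 (standard error 0.08, adjusted p = 0.191). No gene of this list passed for Nic over Con-Pf or for Nic over Con.

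Of 23 genes of dense-core vesicles and peptide processing, 20 were over the filter and 1 rose for Con-Pf over Con, against 1.26% of all probe sets called. This was Scg2, which encodes the vesicle protein secretogranin II. Its levels were 10.57, 10.63 and 10.76 in Nic, 10.51, 10.77 and 10.89 in Con-Pf, and 10.39, 10.45 and 10.68 in Con, with overlap between all groups. The log2 fold change was 0.24 for Con-Pf over Con (standard error 0.05, adjusted p = 0.00891). It did not pass with Con-Pf replicates 9 and 10 counted as Con (0.19, adjusted p = 0.266) or without Con replicates 3 and 5 (0.21, adjusted p = 0.0699). Nor did it pass with the methods' t-test (adjusted p = 0.0522), with unequal variances (0.0806) or with the replicate block over replicates 1 to 7 (0.0547). Chga, the chromogranin A gene, had 0.18 (standard error 0.05, adjusted p = 0.0534) and Vgf, a neurotrophin-induced precursor of several peptides, 0.25 (standard error 0.07, adjusted p = 0.0713). Qpct, whose enzyme caps peptides with pyroglutamate, averaged 8.54 in Nic and 8.41 in Con-Pf (0.13, standard error 0.05, adjusted p = 0.819). The median over the 20 genes was 0.02 for Nic over Con-Pf, -0.03 for Con-Pf over Con and 0.00 for Nic over Con, and 0 passed in the first and the last of these.

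No gene of the 12 cell type marker lists passed in any comparison. For the medium spiny neurons, the median log2 fold change of Nic over Con-Pf, Con-Pf over Con and Nic over Con was 0.05, 0.04 and 0.05 over 7 direct pathway markers. It was 0.04, 0.00 and 0.04 over 6 indirect pathway markers, and 0.02, -0.02 and -0.01 over 7 markers of both classes. For 7 somatostatin interneuron markers it was 0.03, 0.04 and 0.08, and for 7 markers of cholinergic and other interneurons 0.06, 0.02 and 0.10. Gpr6, an indirect pathway receptor gene, had 0.15 for Nic over Con-Pf (standard error 0.05, adjusted p = 0.532), and Slc5a7, the choline transporter gene, -0.26 for Con-Pf over Con (adjusted p = 0.099). Of the glial and vascular lists, the median was within 0.03 of 0 for Nic over Con-Pf in astrocytes, oligodendrocytes, microglia and endothelial cells, while it was -0.02, 0.05, 0.07 and -0.06 for Con-Pf over Con and -0.09, 0.00, 0.04 and -0.08 for Nic over Con. Septal and hypothalamic markers had medians of 0.00, 0.02 and 0.03. Choroid plexus markers, whose mean level reached 10.17 on Con-Pf replicate 4 and 9.62 on Con replicate 2 against medians under 6.8 in each group, had 2 genes over the filter, with medians of -0.36, 0.38 and 0.03.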

How the data were processed

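The authors deposited log2 RMA values of the 25 arrays, an Affymetrix rat gene array, in 1 table. Per the labels, RMA and Affymetrix Expression Console 1.1 were used. The paper's methods give RMA of all arrays together, the removal of 3 arrays by quality, a filter at the median and Student's t-test. RMA brings the arrays to 1 distribution, so a shift of all genes cannot be seen. Gene names came from the platform annotation, in which 15310 probe sets had 1 symbol, 323 several and 13581 none. No values were normalized again. limma 3.58.1 (R 4.3.3) was fitted to the 3 groups on the 14607 probe sets kept, with no covariates, and p-values were adjusted with Benjamini-Hochberg over all of them and called under 0.05. Every member is described. Of each further list up to 4 genes with the smallest unadjusted p were eligible to be named, and for each member the 3 genes with the highest group-centred r. Correlations were tested by permuting arrays within groups (100000 resamples, exact within groups under 10). The fit was tested on simulated data. The members and lists were chosen with earlier results of these data known. RefSeq promoters of 150 bases (GRCr8) were searched with Python 3.11.15.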

Additional observations from a re-analysis of the deposited data

Results flagged for a closer look

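For Penk, Nic replicate 7 had a level of 13.12, below the other 6 Nic arrays, which lay between 13.20 and 13.23. This level lay inside the range of the Con arrays, 13.10 to 13.23. The gap to the nearest Nic array was 0.711 of the narrow range of the group (0.10), over Dixon's critical value of 0.568 for 7 samples. It was the single such array among 21 tests of 7 genes in 3 groups, and chance gives about 1 in 20. The same array also had the lowest Pdyn of the group (9.90) and the highest Npy (10.73). Without it the log2 fold change of Penk was -0.01 for Nic over Con-Pf and 0.05 for Nic over Con.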

How the results depend on the processing

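The 21 differences of the members were computed under 39 other settings: 14 of choices in the processing, test or grouping, and 25 that left out 1 array each. Cck and Cartpt had no value under the stricter filter. Of 813 values, 798 kept their direction, 15 of 3 differences changed it, and none was called (smallest adjusted p 0.112). With the study's thresholds 1 member was counted for Nic over Con-Pf. Pdyn for Nic over Con-Pf was 0.0043 with array weights and -0.05 to 0.02 with 1 array left out. Sst for Con-Pf over Con was -0.01 without Con replicates 3 and 5. Cartpt for Con-Pf over Con was -0.02 after quantile normalization, -0.02 with arrays centred, -0.03 without Con replicates 3 and 5 and -0.09 to 0.07 with 1 array left out. The cause was not tested. Leaving out 1 array gave 1 to 2 correlated pairs, with Sst and Npy in all, Penk and Tac1 without Nic replicate 5 or Con-Pf replicate 5, Npy and Cck without Con replicate 5, and Penk and Cartpt without Con-Pf replicate 9 (an alternative added after the data were seen). Over all probe sets, the calls ranged from 5 to 55 for Nic over Con-Pf (27 as reported), 27 to 480 for Con-Pf over Con (184 as reported) and 0 to 3 for Nic over Con (0 as reported). The replicate numbers gave no clear pairing of the arrays: of 21 same-numbered pairs 10 correlated over 0.1, with a median r of 0.0524. In 5 of the 21 an array correlated best with its own number. These counts cannot tell whether the numbers pair the arrays. With the replicate block over replicates 1 to 7 the calls were 14, 153 and 0, against 17, 132 and 0 without it, and 0 members were called.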
